A study of Rattus norvegicus with 32 samples.

Results

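The ERK feedback genes are 10 rat genes, Dusp1, Dusp4, Dusp5, Dusp6, Spry2, Spry4, Spred1, Etv1, Etv4 and Etv5, out of 26583 gene names on the array. They were chosen by name, through the 12 probes that carry these symbols. The comparison of Ang II+PD123319 and Ang II at 3 h was already in view, so its values are given below as a description without a test. The value of Etv1 with Losartan at 3 h was also known by then. The arrays measured RNA of C6 cells, a rat glioma cell line, on 32 single-dye arrays in 8 groups of 4 replicates. Control cells had no treatment, Ang II cells received angiotensin II at 100 nM, and Ang II+Los and Ang II+PD123319 cells were first held for 30 minutes with 10 µM of Losartan, an antagonist of the AT1 receptor, or of PD123319, an antagonist of the AT2 receptor, before the same Ang II. Each of the 4 treatments was harvested at 3 h and at 6 h, and all groups share the cell line and a serum-containing medium. No group received an antagonist without Ang II. The labels do not say whether replicates came from separate cultures, so a p-value here measures the spread between these samples, which may be technical.

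ERK is the last kinase of the Ras, Raf and MEK cascade that growth factor receptors and many G protein-coupled receptors switch on. Active ERK induces its own brakes: dual-specificity phosphatases (Dusp genes) that remove phosphate from MAP kinases, and Sprouty and Spred proteins that hold back signalling from receptor to Raf. It also induces Etv1, Etv4 and Etv5, ETS transcription factors of the PEA3 subfamily, and the transcripts of all these genes are widely used as a readout of ERK output, in gliomas among other tumours. Transcript levels are measured here, not ERK activity.

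The share of spots well above background ran from 55.9% to 64.7% at 3 h and from 64.2% to 79.8% at 6 h, and replicate numbers are slides, each with 1 array of every treatment of its time. Treatment and position on the slide go together on every slide and cannot be told apart. Of the C6 and glial markers, Vim, Nes, Cnp, Cd44 and S100b had at least 1 probe well above background on all 32 arrays, and Gfap was above it on 0 of 16 arrays at 3 h and 2 of 16 at 6 h. The probes of the Ang II receptors Agtr1a, Agtr1b and Agtr2 were well above background on 0 of 32 arrays. The paper measured both receptor subtypes by qPCR, so this shows only that these probes did not detect them. At 6 h all 10 feedback genes were tested, and at 3 h 9 were. Dusp1 was left out at 3 h, where only 6 of 16 arrays had its probe well above background. Dusp4, also dim, was above background on 13 of 16 arrays at 3 h, with 2 of 4 in Ang II+Los and 3 of 4 in Ang II+PD123319, and the 8 members other than these were above it on all 32. Levels are given as normalized log2 signal. Changes are log2 fold changes with their standard error (SE) and the limma p adjusted over all genes, and a gene passed (rose or fell) with an unadjusted p under 0.05 in limma and a fold change above 1.2 or below 0.8. After Benjamini-Hochberg adjustment over all genes, 0 genes of the array passed 0.05 in limma in any of the 6 comparisons, with 328 to 3534 genes at an unadjusted p under 0.05.

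The probes of Dusp1, Spry2, Spred1, Etv1 and Etv4 are shown because these members passed the limits in a comparison below, and those of Etv5 and Spry4 because each is one side of a disagreement between probes. Dusp5 and Dusp6 also passed, and their probes are not printed. The probes are 60 bases long as on the array, 5′ to 3′, and no gene annotation of the build was used to place them in exons or UTRs. In the Etv1 and Etv5 probes the capitals mark 26 identical bases in a shared stretch of 33, and the other probes are in lower case throughout.
Dusp1: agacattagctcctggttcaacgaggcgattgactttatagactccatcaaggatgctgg
Spry2: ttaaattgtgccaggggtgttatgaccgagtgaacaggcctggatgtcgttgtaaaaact
Spry4: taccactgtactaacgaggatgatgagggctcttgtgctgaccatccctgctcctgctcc
Spred1: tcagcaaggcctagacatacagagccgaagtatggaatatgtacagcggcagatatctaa
Etv1: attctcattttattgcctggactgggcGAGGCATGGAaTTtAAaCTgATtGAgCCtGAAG
Etv4: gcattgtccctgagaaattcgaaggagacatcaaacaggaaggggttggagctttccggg
Etv5: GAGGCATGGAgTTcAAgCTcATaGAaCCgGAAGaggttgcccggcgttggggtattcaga

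In the rn4 build that the array annotation uses, the Dusp1 probe (NM_053769) spans chr10:16944342-16944661 on the plus strand, and the 320 bases of that span against 60 of the probe place it in more than 1 block. The Etv4 probe (NM_001108299, chr10:90810133-90810380, minus strand) and the Etv5 probe printed above (NM_001107082, chr11:80893869-80899401, plus strand) also span more than their length. The probes of Spry2 (NM_001012046, chr15:90009823-90009882, minus), Spry4 (NM_001106150, chr18:31536454-31536513, minus), Spred1 (NM_001047089, chr3:103243556-103243615, plus) and Etv1 (NM_001163156, chr6:57752857-57752916, plus) lie in 1 block each. Dusp5 (NM_133578, chromosome 1) and Dusp6 (NM_053883, chromosome 7) are each read by a probe printed 10 times per array, and Dusp4 (NM_022199, chromosome 16) by a probe printed once. Spry4 and Etv5 have a further probe each, at chr18:31532750-31532809 and chr11:80903852-80903911.

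With Ang II for 6 h, 4 of the 10 feedback genes rose against Control and 0 fell: the phosphatases Dusp1 and Dusp6 and the transcription factors Etv1 and Etv4. Of all 16444 genes tested, 11.5% passed the limits, 6.78% upwards and 4.67% downwards (5.19% and 6.54% after scaling to the 75th percentile, which left 3 of the 4 members). Over the 10 genes the median change was 0.25, and over all genes it was -0.01. The change was above 0 for 8 of 10 members (48.7% of all genes), and 3 members, Dusp1, Dusp6 and Etv1, were higher on all 4 slides (12.2% of all genes, with 14.0% lower on all 4). At 3 h, 2 of the 9 genes tested rose, Etv4 and Spred1, and 0 fell, against 11.0% of all 13627 genes, 5.00% upwards and 5.97% downwards (2.69% and 9.04% after the same scaling, where Etv4 still passed upwards and Dusp4 passed downwards with -0.44). Of the calls over all genes at 3 h, 45.6% were upwards, or 34.6% after quantile normalization. The change at 3 h was above 0 for 6 of 9 members (50.3% of all genes), or for 4 of 9 after 75th percentile scaling or quantile normalization, and Etv4 and Spred1 were higher on all 4 slides (11.8% of all genes, with 12.6% lower on all 4). Etv4 was past the limits at both times, on separate arrays. The Ang II arrays of 3 h, however, were also those of the PD123319 comparison in view when the members were chosen. A high level on them favours both a rise against Control and a fall with PD123319. The 3 h calls are therefore not independent of that choice. The levels of Ang II and Control overlapped for every member at both times, while 1.28% of all genes at 3 h and 1.82% at 6 h showed no overlap.

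**Figure D1:**
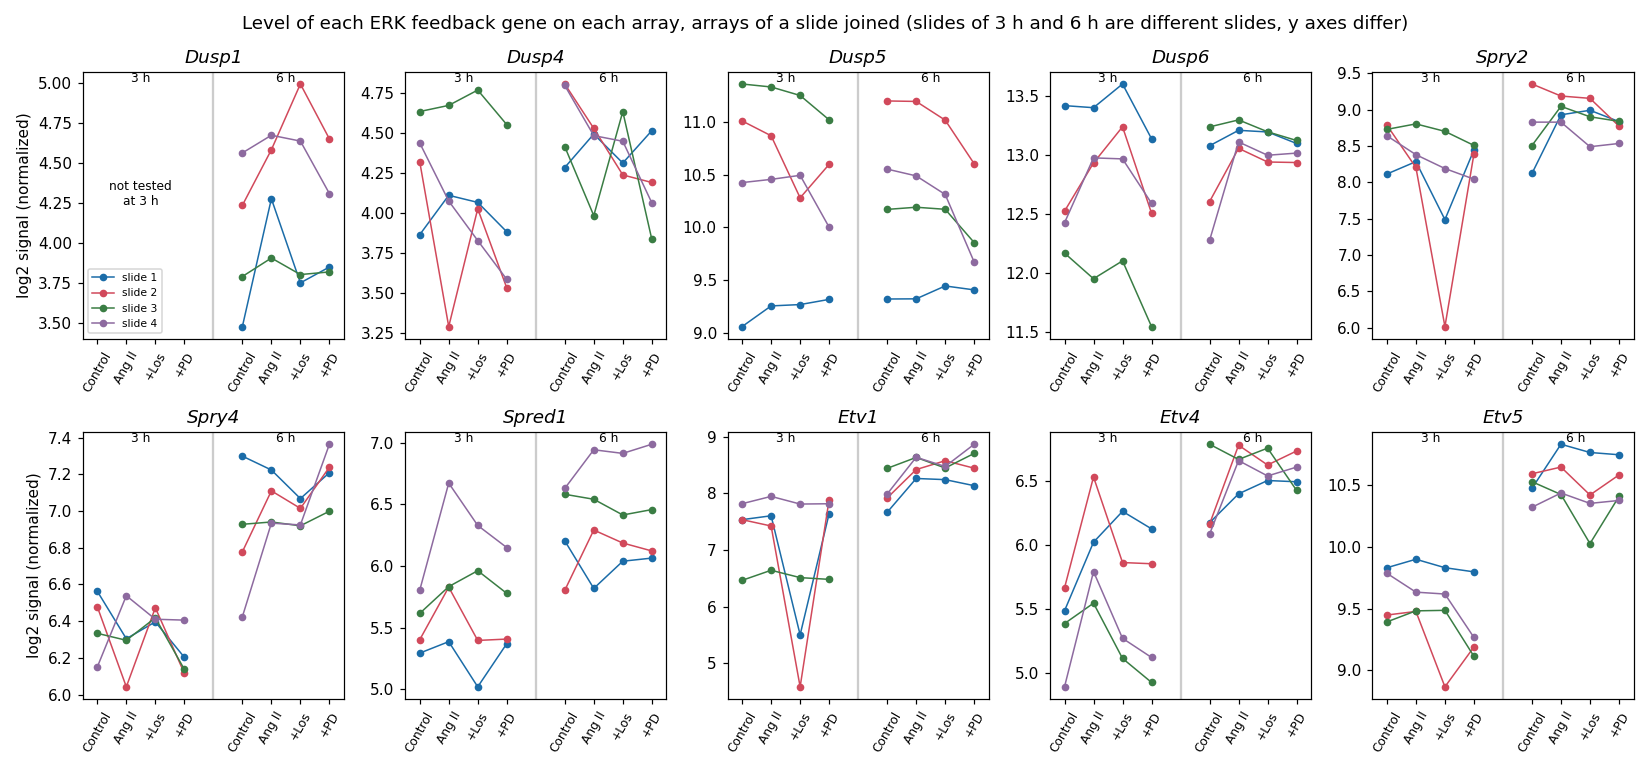
Normalized log2 signal (y axis, which differs between panels) of each feedback gene in the 4 treatments at 3 h and 6 h (x axis), with 1 point per array and the 4 arrays of a slide joined by a line. For Dusp5, slide 1 is the lowest line in every treatment at both times, and the lines of Etv1 dip in Ang II+Los at 3 h on slides 1 and 2 to 5.50 and 4.58.

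Dusp6 encodes the cytoplasmic phosphatase that acts on ERK itself. At 6 h its log2 signal was 13.08, 12.60, 13.24 and 12.28 on the Control arrays of slides 1 to 4 and 13.21, 13.05, 13.29 and 13.11 with Ang II. Control was low on slides 2 and 4, and Ang II was higher on all 4 slides, by 0.13, 0.45, 0.06 and 0.83. Its change was 0.37 (SE 0.12, adjusted p = 0.134). Without replicate 4 it was 0.21 and without replicate 2 it was 0.34, and Dusp6 passed in neither. At 3 h, Dusp6 had 13.42, 12.52, 12.17 and 12.42 in Control and 13.40, 12.93, 11.95 and 12.97 with Ang II, higher on 2 of 4 slides, a change of 0.18 (SE 0.14, adjusted p = 0.562).

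Dusp1, the immediate early nuclear phosphatase of MAP kinases, was dim. At 6 h it had 3.48, 4.23, 3.79 and 4.56 in Control and 4.28, 4.58, 3.91 and 4.67 with Ang II. Slide 1 gave 0.80 and slides 2 to 4 gave 0.35, 0.12 and 0.11. This gave a change of 0.34 (SE 0.14, adjusted p = 0.201). It fell short of the limits without replicate 1 (0.19), without the replicate block, after 75th percentile scaling (0.24) and after normexp background correction, where it was 0.0018. Detection of Dusp1 at 3 h differed between the groups: 3 of 4 arrays with Ang II, 1 of 4 in Control, 2 of 4 with Ang II+PD123319 and 0 of 4 with Ang II+Los were well above background. On slides 1 to 4 it had 3.47, 5.22, 5.24 and 3.24 with Ang II, the last not well above background, and 3.11, 1.13, 4.54 and 2.99 with Ang II+Los. The gap was 4.09 on slide 2 and 0.36, 0.70 and 0.25 on the others, so slide 2 stood apart. For each Ang II+Los array, the higher of its own value and the lowest signal of any probe well above background there was taken. Against these, the mean with Ang II was 1.77-fold higher, and 1.32-fold higher without slide 2. Neither is a lower bound, because the Ang II array of slide 4 was itself not well above background, and no test was made.

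Dusp5, a nuclear phosphatase for ERK, was level between Control and Ang II at 6 h, with 9.32, 11.20, 10.17 and 10.55 against 9.32, 11.19, 10.19 and 10.49. Its change of -0.01 had a 95% confidence interval from -0.29 to 0.26, and at 3 h it was 0.01 with an interval from -0.31 to 0.34. Dusp4, another nuclear MAP kinase phosphatase, had -0.28 at 3 h and -0.20 at 6 h, short of the limits both times. At 6 h it was lower with Ang II on 3 of 4 slides.

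Etv1 was the member with the lowest limma adjusted p in any comparison. At 6 h it had 7.67, 7.92, 8.44 and 7.99 in Control and 8.26, 8.42, 8.64 and 8.64 with Ang II. Ang II was higher on all 4 slides, by 0.60, 0.50, 0.19 and 0.65. The fit gave 0.49 (SE 0.11, adjusted p = 0.0802), and Etv1 passed under all 15 alternatives run, between 0.33 and 0.58. At 3 h Etv1 had a change of 0.07 (SE 0.47, adjusted p = 0.962), and the difference between the times was 0.42 (SE 0.51, adjusted p = 0.856), which did not pass. Both SEs also draw on the Ang II+Los arrays of 3 h, where Etv1 was wide (SD 1.39), though that group is not compared here. With only the 8 arrays of Control and Ang II at 3 h, the SE was 0.11. The difference between the times was not fitted that way, so it does not show an equal change at both times.

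Etv4 rose at both times. At 3 h it had 5.48, 5.66, 5.38 and 4.89 in Control and 6.02, 6.53, 5.54 and 5.79 with Ang II. It was higher on all 4 slides, by 0.54, 0.87, 0.16 and 0.90. Its change was 0.62 (SE 0.18, adjusted p = 0.322), and Etv4 passed under 14 of 15 alternatives, all but the fit without the replicate block. At 6 h the Control arrays had 6.17, 6.16, 6.79 and 6.08 and the Ang II arrays 6.40, 6.78, 6.67 and 6.66, so that the difference was -0.12 on slide 3 and above 0 on the other slides. The change there was 0.32 (SE 0.13, adjusted p = 0.180). It passed in 8 of 15 alternatives and not without replicate 1 (0.36), 2 (0.23) or 4 (0.24), nor with the normexp background (0.12). Etv5 stayed short of the limits, with 0.01 at 3 h and 0.11 at 6 h.

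Spred1 encodes an adaptor that brings neurofibromin, a brake on Ras, to the membrane. At 3 h it had 5.29, 5.40, 5.62 and 5.80 in Control and 5.39, 5.83, 5.83 and 6.67 with Ang II, higher on all 4 slides and most on slide 4, by 0.87. The change was 0.40 (SE 0.14, adjusted p = 0.338). Without replicate 4 it was 0.25 and with the normexp background 0.14, and Spred1 passed in neither. At 6 h it had 0.09 (SE 0.12, adjusted p = 0.685), higher on 2 of 4 slides. Spry2, an inhibitor of signalling between growth factor receptors and Ras, did not pass, with -0.15 at 3 h and 0.30 at 6 h. That 6 h value rested on slides 1 and 3, with 0.81 and 0.54 against -0.17 and about 0 on slides 2 and 4, and without replicate 2 it passed, with 0.45. For the difference between 6 h and 3 h in Ang II against Control, 0 of 9 members passed the limits in limma, 0 also at an unadjusted p under 0.05, against 6.48% of 13614 genes tested at both times. Without replicate 4, 1 member passed. The spread in this fit also draws on the Ang II+Los arrays, which were wide at 3 h for Etv1 and Spry2 (SD 1.39 and 1.17).

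**Figure D2:**
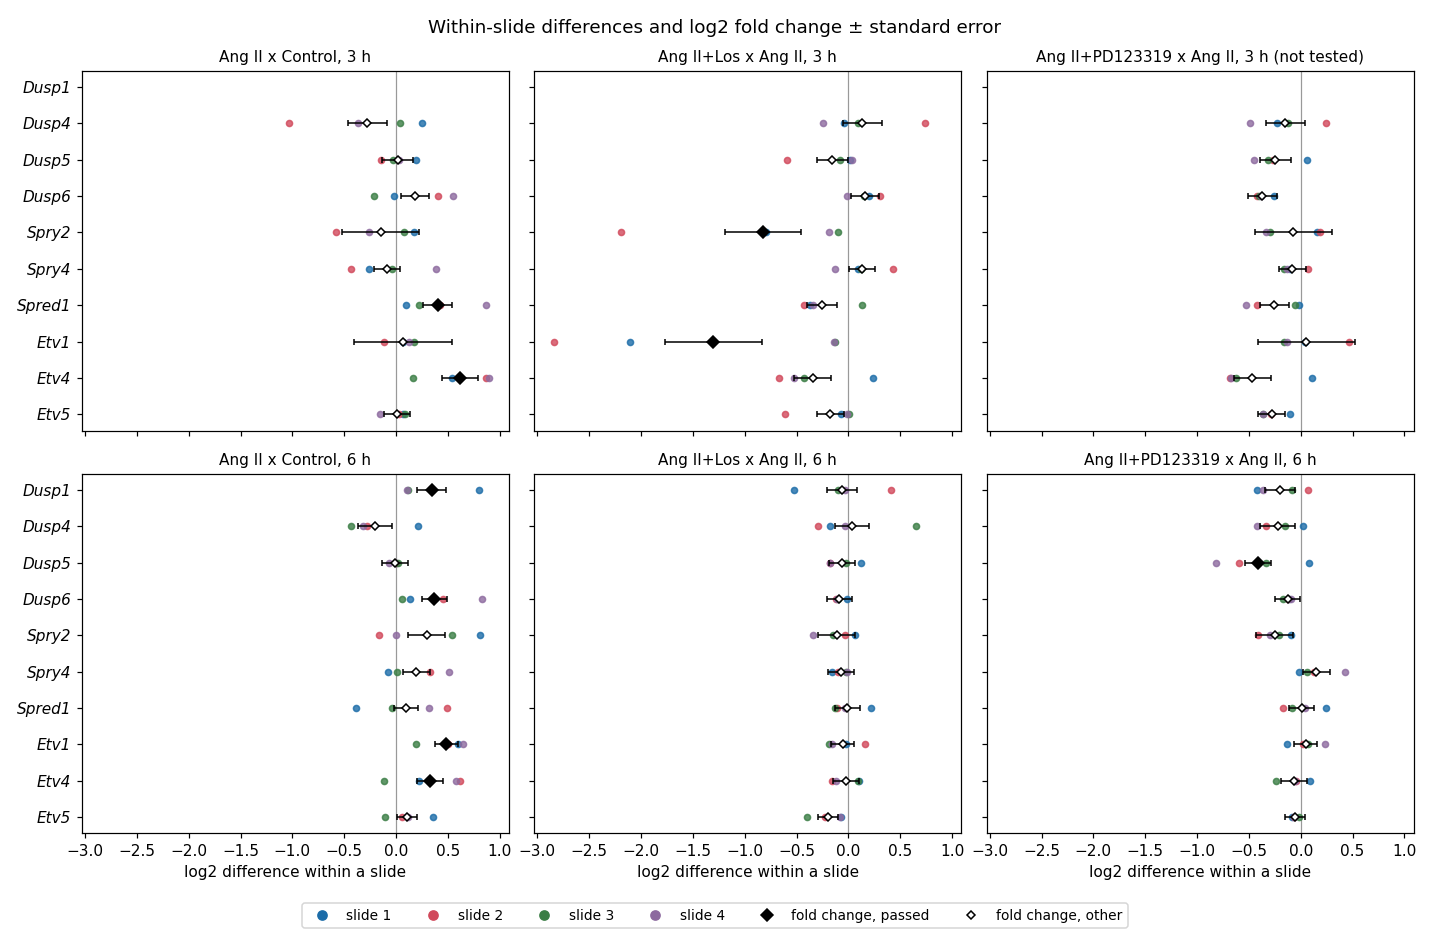
Differences in log2 signal between 2 arrays of the same slide (x axis) for each feedback gene (y axis) in the 6 comparisons, with 1 coloured point per slide and a diamond with its standard error for the fitted log2 fold change. Large filled diamonds mark the 9 values past the limits. In Ang II against Control at 6 h, 8 of 10 diamonds lie to the right of 0.

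The 2 probes of Spry4, another Sprouty inhibitor, gave opposite values with Ang II. At 3 h the probe nearer to the transcript's end in rn4 (chr18:31532750-31532809) gave 0.47 (SE 0.20) and the probe printed above gave -0.65 (SE 0.17), and their mean gave the gene -0.09. At 6 h these were 0.45 (SE 0.20) and -0.06 (SE 0.10), with 0.19 for the gene. With the brighter probe alone, Spry4 passed upwards at both times, and with the deposited values it passed downwards at 3 h with -0.64. For PD123319 against Ang II at 6 h the printed probe had 0.33 (SE 0.10) and the other -0.03 (SE 0.20). Spry4 therefore has no settled direction with Ang II at 3 h. The 2 probes of Etv5 also differed in sign at 3 h, with 0.24 (SE 0.23) for the printed probe and -0.22 (SE 0.10) for the other, and had 0.19 and 0.02 at 6 h.

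**Figure D3:**
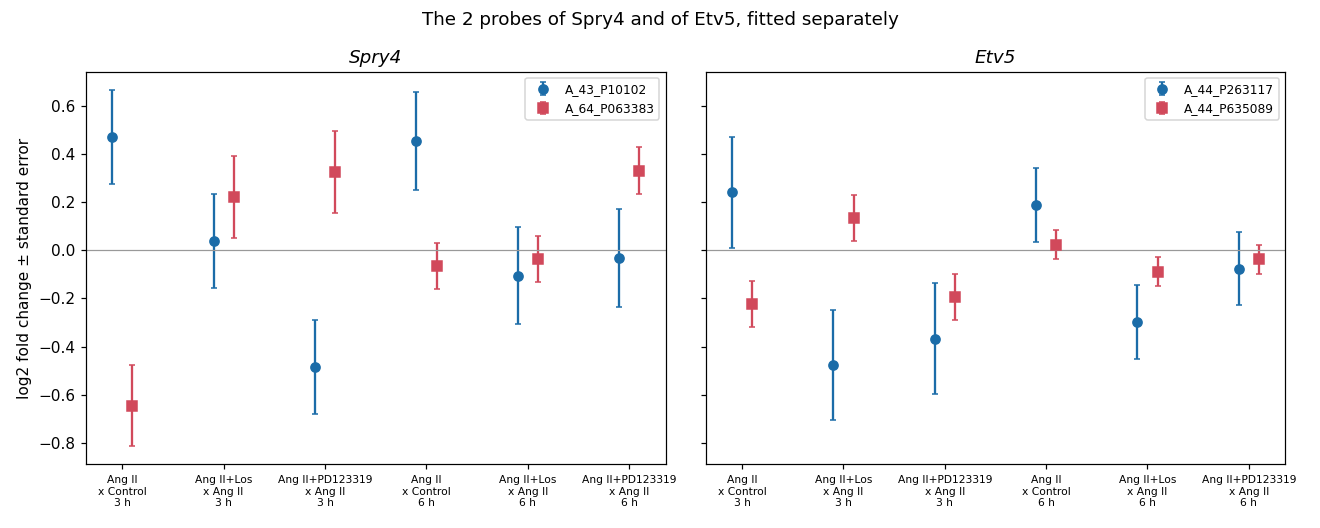
Log2 fold change with its standard error (y axis) for each of the 2 probes of Spry4 and of Etv5, fitted separately, in the 6 comparisons (x axis). The probes printed above are A_64_P063383 and A_44_P263117. For Spry4 in Ang II against Control at 3 h the 2 probes stand at 0.47 and -0.65, on opposite sides of 0.

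With Losartan before Ang II, 2 of 9 feedback genes were lower than with Ang II alone at 3 h, Etv1 and Spry2, and 0 were higher. The value of Etv1 in this comparison was known when the members were chosen. Its call and the count of 2 are therefore a description, also beside the shares of all genes. Of all genes, 10.2% passed, 5.48% downwards and 4.70% upwards. The median change was -0.17 over the members and 0.0032 over all genes. The change was above 0 for 3 of 9 members (50.4% of all genes), 2 members were lower on all 4 slides (8.35% of all genes, with 7.14% higher on all 4), and the groups overlapped for every member (0.785% of all genes did not overlap). These arrays of Ang II are the same ones that stand against Control and against Ang II+PD123319. Etv1 had 5.50, 4.58, 6.51 and 7.81 with Ang II+Los against 7.60, 7.42, 6.64 and 7.95 with Ang II. The differences were -2.10 and -2.84 on slides 1 and 2 and -0.13 and -0.14 on slides 3 and 4, and the fit gave -1.30 (SE 0.47, adjusted p = 0.425). Spry2 followed the same slides, with 7.49, 6.01, 8.70 and 8.19 against 8.29, 8.20, 8.80 and 8.38, and had -0.82 (SE 0.37, adjusted p = 0.425). Slides 1 and 2 form one scan session and slides 3 and 4 another. Within the session of slides 1 and 2, Etv1 had -2.47 and Spry2 -1.50, and both passed. Within the session of slides 3 and 4, Etv1 had -0.13 and Spry2 -0.15, and neither passed. The Ang II+Los arrays of slides 1 to 4 had 64.5%, 57.8%, 55.9% and 58.7% of their spots well above background. Those of slides 2 and 3 were below the other arrays of their slide, and those of slides 1 and 4 were above them. The part of detection in these values was not tested. Without replicate 2, Etv1 had -0.79 and Spry2 -0.36, without replicate 1 they had -1.04 and -0.83, and neither passed in either. In 32 arrays centred by slide, Spry2 and Etv1 had the highest Pearson r of the 36 pairs of members, 0.83 (Spearman 0.55), and 0.63 without the 2 arrays farthest from the median of Spry2, which describes arrays that share slides.

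Etv4 with Losartan at 3 h was lower on 3 of 4 slides, with 6.26, 5.86, 5.11 and 5.27 against 6.02, 6.53, 5.54 and 5.79. Its change of -0.35 (SE 0.18, adjusted p = 0.425) did not pass, but it passed with -0.54 without replicate 1 and with -0.41 after 75th percentile scaling. Dusp6 had 0.16, Dusp5 -0.15 and Spred1 -0.25 there, and none of them passed. At 6 h, 0 of 10 members passed with Losartan in limma, 0 also at an unadjusted p under 0.05 and 0 by a paired test per gene, where 0.900% of all genes passed the limits in limma, 0.535% upwards and 0.365% downwards (0.705% and 0.292% after 75th percentile scaling). The values ran from -0.19 to 0.04 with a median of -0.06, and 1 of 10 was above 0 (49.5% of all genes) or 2 of 10 after 75th percentile scaling or quantile normalization. Dusp6, Spry4 and Etv5 were lower on all 4 slides, as were 7.21% of all genes, with 5.92% higher on all 4. Etv5 was lowest, with 10.76, 10.42, 10.03 and 10.35 against 10.83, 10.65, 10.42 and 10.44 with Ang II, a change of -0.19 (SE 0.10, adjusted p = 1.00). Etv1, low with Losartan at 3 h, had 8.24, 8.58, 8.45 and 8.48 against 8.26, 8.42, 8.64 and 8.64 at 6 h, a change of -0.05 with a 95% confidence interval from -0.29 to 0.19. The difference between the times, 1.25 at 6 h minus 3 h (SE 0.51, adjusted p = 0.701), passed the limits for Etv1 as 1 of 9 members, against 4.63% of all genes. Its 3 h part was known when the members were chosen, so this pass is a description.

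With PD123319 before Ang II at 3 h, the comparison with which the genes were chosen, the change against Ang II was below 0 for 8 of 9 members, or 7 of 9 after 75th percentile scaling. The median was -0.24 over the members and -0.02 over all genes. Below 0 were also 55.3% of all genes, and 10.6% of all genes lay beyond the fold limits, 2.30% below 0.8 and 8.34% above 1.2 (0.961% and 11.5% after scaling to the 75th percentile). Dusp6 and Etv4 were below 0.8. Dusp6 had 13.14, 12.51, 11.55 and 12.59 with PD123319 against 13.40, 12.93, 11.95 and 12.97 with Ang II, with differences of -0.26, -0.42, -0.40 and -0.38 on the 4 slides and -0.37 in the fit. Etv4 had 6.12, 5.85, 4.92 and 5.12 against 6.02, 6.53, 5.54 and 5.79, higher on slide 1 and lower on the others, with -0.47. Just short of the fold limit, Etv5 had -0.28, and Spred1 had -0.25 and Dusp5 -0.24. Dusp6, Etv5 and Spred1 were lower on all 4 slides (7.65% of all genes, with 6.31% higher on all 4), Dusp5 was lower on 3, and the groups overlapped for every member (0.367% of all genes did not overlap). Without replicate 1, 5 members lay beyond the fold limits, where 6.23% of all genes were below 0.8 and 12.9% above 1.2. Dusp4 (-0.15), Spry4 (-0.08), Spry2 (-0.07) and Etv1 (0.05) were closer to 0. The value of Spry4 is a mean over probes of opposite sign, with 0.33 (SE 0.17) for the printed probe and -0.49 (SE 0.20) for the other, so it has no settled direction here. Since the Ang II arrays are shared with the comparison against Control, the level of Control is set beside these values. Dusp6 averaged 12.63 ± 0.54 in Control, 12.81 ± 0.61 with Ang II and 12.44 ± 0.66 with Ang II+PD123319, and Etv4 averaged 5.36 ± 0.33, 5.97 ± 0.42 and 5.51 ± 0.57 in the same order (SD, n = 4 each). For Dusp6 the spread between slides was larger than these differences. For Etv4 the SDs of Control and Ang II were smaller in size than its changes, 0.62 with Ang II and -0.47 with PD123319. The SD of 0.57 with Ang II+PD123319 was larger in size than the change of -0.47. All these changes are differences within slides.

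At 6 h, on arrays that took no part in that choice, 1 of 10 members fell with PD123319 and 0 rose, against 3.79% of all genes, 1.22% downwards and 2.57% upwards (0.529% and 5.04% after 75th percentile scaling). The change was above 0 for 3 of 10 members (48.5% of all genes), and the groups overlapped for every member (0.602% of all genes did not overlap). The gene that fell was Dusp5. It had 9.41, 10.60, 9.86 and 9.67 with Ang II+PD123319 against 9.32, 11.19, 10.19 and 10.49 with Ang II. The differences were 0.08 on slide 1 and -0.59, -0.33 and -0.82 on slides 2 to 4. The fit gave -0.41 (SE 0.13, adjusted p = 0.562), and it was -0.36 without replicate 2 and -0.28 without replicate 4, where Dusp5 no longer passed, nor did it without the replicate block. At 3 h the differences of the same gene were 0.06 on slide 1 and -0.27, -0.31 and -0.45 on slides 2 to 4.

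The members that were below the fold limit at 3 h were near Ang II at 6 h. Dusp6 had 13.10, 12.93, 13.12 and 13.01 with PD123319 against 13.21, 13.05, 13.29 and 13.11 with Ang II. It was lower on all 4 slides, with -0.11, -0.12, -0.17 and -0.09, and the fit gave -0.12 with a 95% confidence interval from -0.39 to 0.14. Etv4 had -0.06, with an interval from -0.34 to 0.22. Spry2 (-0.25) and Etv5 (-0.06) were, like Dusp6, lower on all 4 slides (11.4% of all genes, with 10.5% higher on all 4) and did not pass. The median of the 10 genes was -0.09, and that of all genes was -0.0038. At 6 h Dusp6 averaged 12.80 ± 0.44 in Control, 13.17 ± 0.11 with Ang II, 13.08 ± 0.13 with Ang II+Los and 13.04 ± 0.08 with Ang II+PD123319 (SD, n = 4 each), so that Control had the lowest mean and the widest spread. Etv1 averaged 8.49 ± 0.18, 8.44 ± 0.14 and 8.54 ± 0.32 (SD, n = 4 each) in the groups with Ang II, Ang II+Los and Ang II+PD123319.

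For several feedback genes, the slide set the level more than the treatment. Dusp5 averaged 9.23, 10.69, 11.24 and 10.34 on slides 1 to 4 at 3 h, a range of 2.01, while its treatment means ranged over 0.24. At 6 h its slide means ranged over 1.63. The slides held 93.7% of its sum of squares at 3 h and 86.8% at 6 h, and the treatments 1.77% and 7.90%. The median over all genes was 57.2% for slides and 13.5% for treatments at 3 h, and 65.2% and 9.90% at 6 h. Dusp6 averaged 13.39, 12.80, 11.94 and 12.74 on the same slides, highest on slide 1 and lowest on slide 3, where Dusp5 was lowest on slide 1 and highest on slide 3. Etv1 was the member with the largest treatment share at 6 h, 48.2%, and Spry4 had the smallest slide share at 3 h, 7.74%. The level of Spry4 is a mean over 2 probes of opposite sign with Ang II at 3 h, and the share of each probe was not computed. Culture, RNA and array of a slide cannot be told apart.

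**Figure D4:**
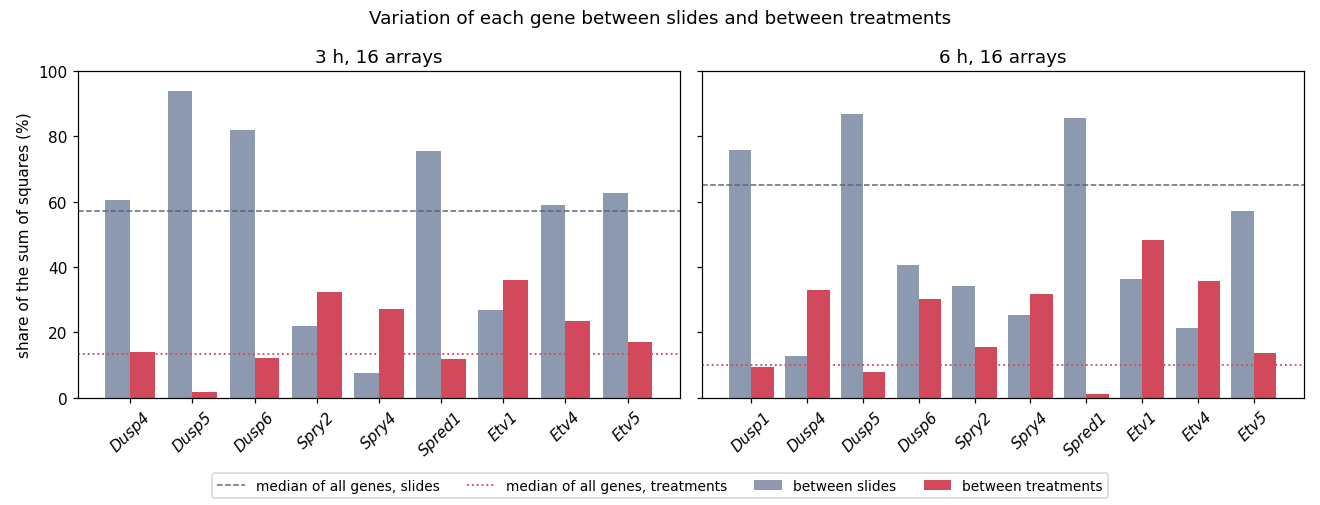
Share of each gene's sum of squares (y axis, in percent) that lies between the 4 slides (grey bars) and between the 4 treatments (red bars) at 3 h and 6 h, with dashed and dotted lines for the medians of all genes. Dusp5 has 93.7% between slides at 3 h and 86.8% at 6 h, and Etv1 has 48.2% between treatments at 6 h.

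Other genes of the pathway were read from lists. With Ang II, 5.00% of all genes rose and 5.97% fell at 3 h, and 6.78% rose and 4.67% fell at 6 h. Of the other dual-specificity MAP kinase phosphatases, Dusp7, a cytoplasmic ERK phosphatase like Dusp6, rose with Ang II at 6 h by 0.48 on the log2 scale (SE 0.15, adjusted p = 0.132), 1 of 4 tested, and Dusp8 fell at 3 h by 0.83 on the log2 scale (SE 0.25, adjusted p = 0.322), 1 of 3 tested. Of 6 other ERK output genes tested, 3 rose with Ang II at 6 h: Egr1 with 0.47, Phlda1 with 0.44 and Ier3 with 0.35, and 0 passed at 3 h. The other output genes at 6 h, Fosl1 (-0.15), Ccnd1 (0.17) and Epha2 (0.15), did not pass. Fosl1, which went down, had an unadjusted p under 0.05 in limma, as had 4 of the 6 in all. The median of the 6 at 6 h was 0.26, and at 3 h 0 of the 6 had an unadjusted p under 0.05. Of 3 other Sprouty and Spred genes tested at 6 h, Spry1 (-0.23), Spry3 (0.16) and Spred3 (-0.16), 0 passed, and 1 of them, Spry1, had an unadjusted p under 0.05 in limma. Of 5 genes that act at the receptor, Cbl (-0.39) and Cblb (-0.38), ubiquitin ligases for receptor tyrosine kinases, fell and Sh2b3 (0.27) rose with Ang II at 3 h, and 0 passed at 6 h in limma, 0 also at an unadjusted p under 0.05. Of the kinases and adaptors of the cascade, Rps6ka3 (0.50) and Sos1 (0.45) rose at 3 h, 2 of 17, and 0 of 19 passed both limits at 6 h in limma, where 4 had an unadjusted p under 0.05. With Losartan, 1 gene of these 5 lists passed at 3 h, Map2k1 with -0.42, and 0 passed in limma at 6 h, 0 also at an unadjusted p under 0.05. With PD123319 at 6 h, 0 passed both limits in limma, and 2 genes of the cascade, 1 output gene and 1 phosphatase had an unadjusted p under 0.05. At 3 h, where no test is given, 5 of the 32 list genes measured lay below a fold of 0.8 with PD123319 and 0 above 1.2, against 2.30% and 8.34% of all genes: Fosl1 (-0.41), Sh2b3 (-0.38), Egr1 (-0.37), Rasa1 (-0.36) and Shc1 (-0.33). That comparison was in view when the members were chosen, and the lists were chosen with earlier results of these data known. The counts are therefore a description, also beside the shares of all genes.

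The promoters of Dusp1 and Dusp5 are shown because they were the members whose 250 bases before the transcription start (RefSeq, GRCr8) held a full CRE or paired CArG boxes, motifs bound by CREB and by serum response factor. Both strands were searched, and the capitals mark the motifs, including the CRE core TGACG on either strand.
Dusp1: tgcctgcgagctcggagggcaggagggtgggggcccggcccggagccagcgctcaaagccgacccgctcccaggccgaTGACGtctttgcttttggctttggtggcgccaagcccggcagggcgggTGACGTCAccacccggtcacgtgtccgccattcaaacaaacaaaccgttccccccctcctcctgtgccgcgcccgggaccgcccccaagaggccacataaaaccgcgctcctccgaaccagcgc
Dusp5: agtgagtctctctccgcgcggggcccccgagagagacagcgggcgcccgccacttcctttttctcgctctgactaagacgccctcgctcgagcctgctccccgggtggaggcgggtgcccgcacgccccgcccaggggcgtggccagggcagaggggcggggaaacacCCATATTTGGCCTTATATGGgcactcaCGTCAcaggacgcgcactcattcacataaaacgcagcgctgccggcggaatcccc

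The Dusp1 window is chr10:17184603-17184852 (plus strand) and the Dusp5 window chr1:262543524-262543773 (plus strand). The CRE TGACGTCA starts 124 bases before the Dusp1 start and is held by 1.59% of all 33469 promoters, and TGACG alone by 18.2%. The CArG boxes start 82 and 72 bases before the Dusp5 start, and 1.5% of promoters hold one. Etv1 holds a CArG box too, 237 bases before its start. The ETS core CCGGAA was found for Spry2 and Spry4 (12.6% of promoters), and the AP-1 motif TGANTCA in 0 of 9 promoters listed for 8 members (6.34% of promoters). Promoters of Dusp4 and Etv4 were not used here.

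By the Pearson r of slide-centred values over the 32 arrays, among 7455 named genes well above background on all arrays, the patterns most like Dusp6 were those of Mmd (0.88), Gpr77 (0.86) and Rhot2 (0.86), where the median gene had 0.00765. For Spry4 they were Plxna2 (0.80), Egr2 (0.77) and Kcnh6 (0.77), and for Etv5 Itga3 (0.77), Canx (0.74) and Fkbp15 (0.74). Within the list, Dusp6 was most like Spry4 (0.62) and Etv4 (0.60), and the 36 pairs of members had a median of 0.08 and ranged from -0.53 for Dusp5 and Spry4 to 0.83. These values describe arrays that share slides and treatments, and carry no test. The level of Spry4 is a mean over probes of opposite sign with Ang II at 3 h, with changes of 0.47 and -0.65. Its r values, also those with Dusp6 and Dusp5, therefore describe that mean and not the pattern of either probe.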

How the data were processed

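The authors deposited scanner files of 32 single-dye Agilent arrays with background-subtracted spot intensity (Feature Extraction 9.5.3.1 per the labels), and a table of log2 values per probe, which the authors deposited without normalization between arrays. Here the intensity was used: spots flagged as outliers were left out, signals at 3 h not significantly above background were replaced by their error, as the scanner software had done at 6 h, log2 values of a probe's spots were averaged, arrays of each time were normalized by cyclic loess (span 0.7, 3 iterations), and probes of a gene averaged. Probes were kept where all 4 arrays of 1 group or more were well above background, with at most 2 gaps. limma 3.58.1 (R 4.3.3) was fitted to the 16 arrays of a time with group and replicate number. The paper's methods name t-tests without saying whether they were paired, and the series design calls them paired. A t-test per gene, paired by slide, was run as an alternative. Replicate numbers are slides in the file headers, and arrays of a slide deviated together from their group means (correlations of 0.148 to 0.917 at 3 h and 0.550 to 0.826 at 6 h), so the number was a block. The difference between times was fitted over all 32 arrays. The number of arrays limits the precision: the median standard error of the members was 0.15 at 3 h and 0.13 at 6 h. The code was tested on simulated data.

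The members and gene lists were chosen with earlier results of these data known, and Etv1 with Losartan at 3 h was among those results. Named are all members, up to 4 genes per list and comparison that passed, and the 3 genes most like Dusp6, Spry4 and Etv5. Of lists with at most 6 genes measured, the genes that did not pass are named only in part. The text gives examples for lists where 0 passed. Sequences are the array's own probes and RefSeq promoters. Slides, scans and alternative settings are described with the results.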

Additional observations from a re-analysis of the deposited data

Results flagged for a closer look

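In 76 groups of 4 levels of the members, 2 held an array far from the other 3 by Dixon's ratio, where chance alone gives about 1 in 20 groups. Dusp4 with Ang II at 6 h was lowest on slide 3, with 3.98 against 4.49 for the next, a ratio of 0.917. Etv4 in Control at 6 h was highest on slide 3, with 6.79 against 6.17 for the next, a ratio of 0.873, and this is the slide on which Ang II did not exceed Control.

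For Etv1 with Losartan the values of the 2 times lay apart by more than the limits, and the 3 h value was known when the members were chosen. The log2 fold change against Ang II at 6 h minus that at 3 h was 1.25 (SE 0.51, adjusted p = 0.701 by limma), and it passed the limits as 1 of 9 members, against 4.63% of all genes. The difference was 0.97 without replicate 1 and 0.67 without replicate 2, where it did not pass, nor did it pass without the replicate block. The Ang II+Los arrays of slides 1 and 2 at 3 h, which lie in the same scan session, carry it, and the part of those arrays in it was not tested.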

How the results depend on the processing

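Of 876 values of single members under other settings, 824 kept their side of the limits or, at 3 h with PD123319, moved by less than their spread, and 42 lost a call, 7 gained one, 2 moved by more than their spread and 1 reversed. Of the 824, 48 changed sign with no call in either setting, such as Etv5 in Ang II against Control at 3 h, -0.22 with the brightest probe and -0.05 after 75th percentile scaling, so values near 0 have no settled direction. The value that passed with the other sign was Spry4 in Ang II against Control at 3 h with the brightest probe, 0.47. Counts of members past the limits that moved by over 1.5 times, and medians that moved by more than their spread, follow, the cause was not tested, and other counts stayed within 1.5 times. In Ang II against Control at 3 h (2), the count was 0 with no replicate block, and 1 with the paired t-test, with the normexp background and within scan 1, and the median of 0.01 moved to 0.15 within scan 2. At 6 h (4), it was 1 with the paired t-test and 2 with normexp and within scan 3, and the median of 0.25 moved to 0.10 with normexp and 0.051 with the deposited values. With Losartan at 3 h (2), it was 1 with no replicate block, with only the 8 arrays of the comparison and with the deposited values, and 0 with the paired t-test and within scan 2. With PD123319 at 3 h, 2 members lay beyond the fold limits, 1 with normexp and within scan 1, and 4 within scan 2. With PD123319 at 6 h (1), it was 0 with no replicate block, with the paired t-test and within scan 3, and 2 with the deposited values, and the median of -0.09 moved to -0.058 with 75th percentile scaling, -0.061 with the strict filter, -0.017 with normexp and -0.042 with the deposited values. Of the differences between times, that of Ang II against Control (0) had 1 with the deposited values, and that of Losartan (1) had 0 with no replicate block and 2 with no filter on dim probes.

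Leaving out 1 replicate in turn gave 1 to 2 members in Ang II against Control at 3 h (median -0.01 to 0.07) and 2 to 4 at 6 h (0.16 to 0.23). With Losartan it gave 0 to 2 at 3 h (-0.23 to -0.07) and 0 at 6 h (-0.08 to -0.03). With PD123319 it gave 2 to 5 at 3 h (-0.33 to -0.16) and 0 to 1 at 6 h (-0.12 to -0.09). The differences between times had 0 to 1 each, 1 in Ang II against Control without replicate 4 and 0 with Losartan without replicate 1 or 2. The deposited values hold 7 members complete at 3 h and 8 at 6 h. The fold value for Dusp1 without slide 2 was chosen after seeing the data. Scan 4 holds a single slide and gives no value. Dim signal limits Dusp1 and Dusp4.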
